A study of Mus musculus with 2 samples.

Results

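Lilrb4, Gp49a and Lilrb3 are leukocyte receptor genes whose DNase I signal in M1 cells was followed here before and after IL-6. They are 3 of the 22605 genes, and 9 of the 55432 transcript rows, in a table that lists the signal over the coding span of each transcript, from its start codon to its stop codon with introns. Rows were taken by gene name. The genes were selected on their measured signal, since Lilrb4 was chosen by the size of its ratio of IL-6 to M1 reads, one of the largest among genes with 100 or more reads in total. The values of this comparison therefore describe the genes that were picked and are given with no test.

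M1 is a mouse myeloid leukemia line with the character of a myeloid progenitor, and IL-6 drives it toward macrophage-like cells. Cells at passages 15 to 18, in RPMI medium with horse serum, were either left untreated or kept in medium with IL-6 for 4 to 5 days, and no transgene or other agent separates the conditions. The question was which sites open or close as M1 cells differentiate. In DHS-seq, nuclei are lightly cut with DNase I and the short fragments released from accessible DNA are sequenced. There was 1 library of M1 cells and 1 of IL-6-treated M1 cells, so no difference below has a replicate check, and a change in the share of cells with open DNA cannot be told apart from a change within each cell.

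The receptors belong to a paired family on leukocytes, in which closely similar extracellular immunoglobulin-like domains are joined either to an inhibitory or to an activating tail. Lilrb4 encodes gp49B, an inhibitory receptor of mast cells, macrophages and other myeloid cells whose cytoplasmic motifs recruit the phosphatases SHP-1 and SHP-2. Gp49a encodes gp49A, which shares the extracellular part of gp49B and lacks its inhibitory motifs. Lilrb3 is the name used in the table for the gene of PIR-B, an inhibitory receptor that binds MHC class I and, in neurons, myelin proteins.

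Lilrb4 and Gp49a form a tandem pair on the plus strand of chromosome 10 (NCBIM37). The GENCODE annotation places Gp49a at chr10:51200438-51206122 and Lilrb4 at chr10:51200446-51216419, because some Lilrb4 transcripts take the first exon of Gp49a and are spliced from it to the downstream copy. Lilrb3 lies on the minus strand of chromosome 7, at chr7:3663011-3671993. The pair on chromosome 10 is a near copy: its coding spans align over 4998 bp, of which 4824 bp (96.5%) are identical. Exons 3 and 4 of the pair encode the immunoglobulin-like domains, and exon 3 is the less similar of these, at 94.0% identity against 96.7% for exon 4. Exon 1, which carries the start codon, is the same in both copies, at chr10:51200526-51200559 in Gp49a and chr10:51210824-51210857 in the downstream copy. These exons are printed because they show how far a short read can tell the copies apart. In exon 3, at chr10:51200946-51201230 and chr10:51211240-51211524, capitals mark the 17 bases that differ.
Exon 1, both genes: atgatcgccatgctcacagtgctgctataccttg
Gp49a exon 3: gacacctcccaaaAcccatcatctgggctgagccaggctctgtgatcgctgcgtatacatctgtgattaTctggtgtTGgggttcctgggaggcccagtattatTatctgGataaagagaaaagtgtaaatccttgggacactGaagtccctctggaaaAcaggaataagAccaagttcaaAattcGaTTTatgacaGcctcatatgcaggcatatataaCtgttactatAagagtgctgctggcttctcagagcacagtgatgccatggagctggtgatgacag
Lilrb4 exon 3: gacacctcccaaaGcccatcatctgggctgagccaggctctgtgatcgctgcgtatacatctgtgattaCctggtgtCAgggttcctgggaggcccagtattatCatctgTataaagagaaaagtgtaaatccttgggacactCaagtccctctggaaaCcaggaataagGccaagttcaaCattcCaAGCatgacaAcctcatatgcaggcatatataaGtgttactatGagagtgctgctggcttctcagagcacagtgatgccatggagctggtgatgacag

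The 250 bases before the annotated start were available from the RefSeq promoter table (build GRCm38.p6) for Gp49a, there named Lilr4b, and for Lilrb3, there named Pirb. Lilrb4, there named Lilrb4a, was not matched. Both sequences were found unchanged in NCBIM37, the Gp49a promoter at chr10:51200168-51200417 on the plus strand and the Lilrb3 promoter at chr7:3671985-3672234 on the minus strand. They were searched on both strands for TTCNNNGAA, the pattern bound by STAT factors, which act below the IL-6 receptor, and for GAGGAA, the core of the box bound by the myeloid factor PU.1. The patterns do not overlap in these windows. Capitals mark the matches.
Gp49a promoter: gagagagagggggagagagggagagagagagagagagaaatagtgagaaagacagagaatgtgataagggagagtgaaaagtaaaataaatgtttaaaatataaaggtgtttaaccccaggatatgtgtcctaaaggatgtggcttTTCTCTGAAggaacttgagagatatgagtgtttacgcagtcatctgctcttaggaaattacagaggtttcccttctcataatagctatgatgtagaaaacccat
Lilrb3 promoter: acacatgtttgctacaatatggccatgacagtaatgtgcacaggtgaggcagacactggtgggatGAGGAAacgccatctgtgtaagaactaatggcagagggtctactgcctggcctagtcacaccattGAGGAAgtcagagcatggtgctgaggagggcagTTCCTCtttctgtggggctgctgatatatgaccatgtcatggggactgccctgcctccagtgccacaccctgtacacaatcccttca
The Gp49a promoter held 1 STAT match and 0 PU.1 matches, and the Lilrb3 promoter held 3 PU.1 matches, 1 of them as the reverse complement TTCCTC, and 0 STAT matches. Among 27025 promoters of the same length, 1940 (7.18%) held TTCNNNGAA and 6252 (23.1%) held GAGGAA. A match describes letters in the sequence and does not show that a factor was bound.

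The signal of a span is the mean number of reads per 700-bp window that the span touches. The deposited values were converted back to whole reads, and those of the IL-6 library carry a constant factor of 1.038 per read set by the authors. Ratios are scaled IL-6 reads over M1 reads with a 95% Clopper-Pearson interval, means have a 95% exact Poisson interval, and all intervals cover counting error only. The log2 ratio has 0.5 reads added to each library. Over listed spans without overlap, M1 cells had 9102320 reads and IL-6-treated M1 cells 8544903, or 7.58 and 7.12 reads per window. Of the 18472 genes that reached over 21 reads in M1 cells, after IL-6 or in both, here called covered genes, 315 (1.71%) were at least 2-fold higher after IL-6 and 2477 (13.4%) at least 2-fold lower. DNase I signal over coding spans was present at most genes, so marker levels cannot check the cell type here. The 7 measured markers of myeloid progenitors had 4.10 to 51.5 reads per window in M1 cells and 5.45 to 19.2 after IL-6, and the 10 macrophage markers 2.75 to 129 and 3.40 to 26.0.

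Across the whole Lilrb4 span there were 44 reads in M1 cells and 111 in IL-6-treated M1 cells over 23 windows. The signal was 1.91 reads per window in M1 cells (1.39 to 2.57; SD over windows 2.17) and 5.01 after IL-6 (4.12 to 6.03; SD over windows 3.40). The ratio was 2.62 (1.83 to 3.80), a log2 ratio of 1.38. Lilrb4 was picked by this ratio, so the gap between the counting intervals of the libraries restates that choice. Even after the rise Lilrb4 was weakly cut, standing at the percentile 10.9 of all genes by signal in M1 cells and 26.2 after IL-6.

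Gp49a had 23 reads in M1 cells and 47 after IL-6 over its 9 windows. Its signal was 2.56 reads per window (1.62 to 3.83) and 5.42 (3.98 to 7.21), with SDs over windows of 2.24 and 3.55. The ratio was 2.12 (1.26 to 3.66), a log2 ratio of 1.07. All 9 of these windows also lie in the Lilrb4 span, so the values of the pair are not separate observations.

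Lilrb3 had 49 reads in M1 cells and 89 after IL-6 over 12 windows, the highest level of the 3 genes in both libraries. Its signal was 4.08 reads per window (3.02 to 5.40; SD over windows 4.10) and 7.70 (6.18 to 9.48; SD over windows 7.06). The ratio was 1.89 (1.32 to 2.73), a log2 ratio of 0.91, short of 2-fold. In M1 cells the order of levels was Lilrb4, Gp49a and Lilrb3, and in both libraries the interval of Gp49a overlapped those of the other two. All 3 genes were covered genes. Of the 3, 2 were at least 2-fold higher, beside 1.71% of covered genes and 4.83% of all genes, a count that the choice of Lilrb4 fixes in part. With 5 reads added to each library the ratio of Gp49a was 1.93, which leaves Lilrb4 as the 1 gene of the 3 past 2-fold.

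**Figure D1:**
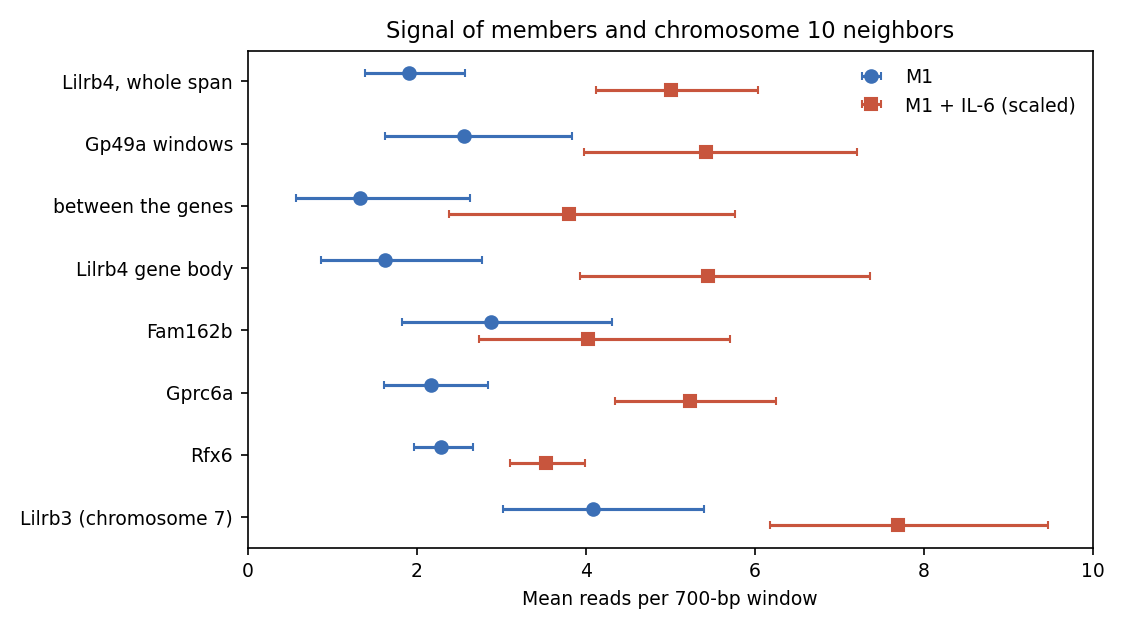
Mean reads per 700-bp window (x axis) for the member genes, for the stretches of the Lilrb4 span and for the chromosome 10 neighbors (y axis), with M1 cells as blue circles, IL-6-treated M1 cells as red squares (scaled) and 95% exact Poisson intervals as bars. The intervals of the libraries are apart for Gprc6a, Rfx6 and Lilrb3, and overlap for Fam162b. Those of the whole Lilrb4 span are apart too, which restates how the gene was chosen.

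The transcripts share boundaries, which allowed the rise to be placed along the locus. Lilrb4-001 and Lilrb4-002 have the same coding span, chr10:51200526-51216050, and hold the Gp49a windows. Lilrb4-201 and Lilrb4-202 begin at the first exon of the downstream copy and cover chr10:51210824-51216050 in 8 windows. In this body of Lilrb4 the reads went from 13 to 42, or from 1.63 (0.865 to 2.78) to 5.45 (3.93 to 7.37) per window. The ratio of 3.35 (1.77 to 6.81), a log2 ratio of 1.71, was the highest of any stretch of the locus that could be separated.

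Among the Gp49a transcripts, Gp49a-202 covers chr10:51200486-51204319 and the first 7 windows. These windows held 21 reads in M1 cells and 45 after IL-6, 3.0 (1.86 to 4.59) and 6.67 (4.87 to 8.93) per window, a ratio of 2.22 (1.30 to 3.93). They include the Gp49a promoter shown above, whose window could not be separated from the others. Gp49a-001 adds an eighth window with 2 reads in each library, and Gp49a-201 adds a ninth with 0 reads in each. The 95% interval of a count of 0 in 1 window reaches 3.69 reads. All 24 reads that Gp49a gained were therefore in its first 7 windows.

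The 6 windows between the Gp49a windows and the downstream copy, chr10:51206401-51210600, are intron of the long Lilrb4 transcripts. They went from 8 reads to 22, or from 1.33 (0.576 to 2.63) to 3.81 (2.39 to 5.76) per window, a ratio of 2.85 (1.22 to 7.42). The rise was thus spread over the locus. Of the 67 reads gained over the whole span, 24 (35.8%) were in the Gp49a windows, which are 39.1% of the windows. The stretch between the copies took 14 (20.9%) with 26.1% of the windows, and the body of Lilrb4 took 29 (43.3%) with 34.8%. Outside the Gp49a windows there were 21 reads in M1 cells and 64 after IL-6, a ratio of 3.16 (1.91 to 5.45). The intervals of the ratios of all 3 stretches overlap.

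**Figure D2:**
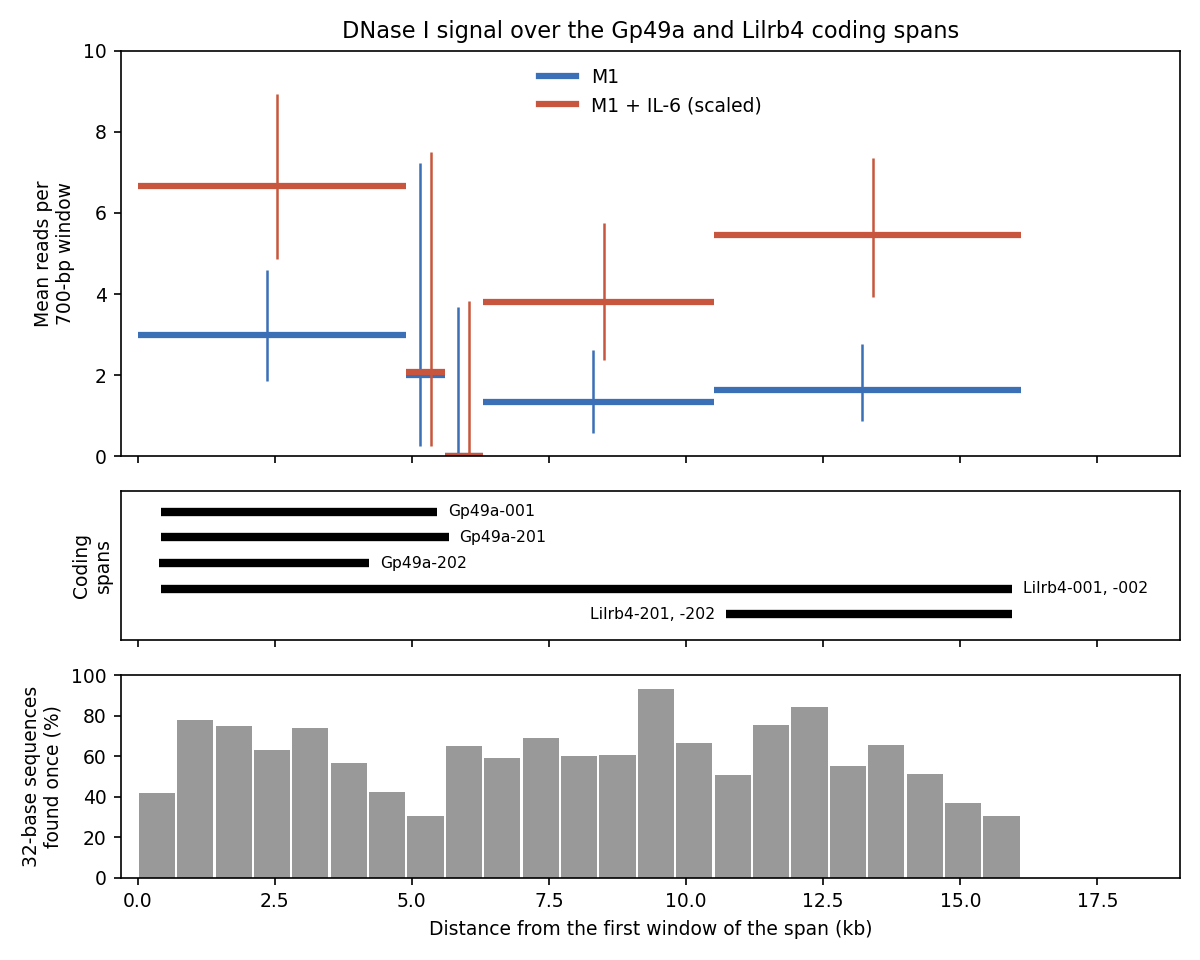
The upper panel plots mean reads per 700-bp window (y axis) over each separable stretch against distance in kb from the first window (x axis), as horizontal bars for M1 cells (blue) and IL-6-treated M1 cells (red, scaled) with 95% exact Poisson intervals as vertical lines. The middle panel draws the coding spans, and the lower panel gives the percent of 32-base sequences of each window found once in NCBIM37: signal after IL-6 lies above M1 in the first Gp49a windows, the stretch between the copies and the body of Lilrb4.

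The SD over windows, read with the mean, limits how the reads can be spread over single windows. In M1 cells the 8 windows of the Lilrb4 body had only 1 possible set of values, with 1 window of 8 reads, 1 of 2, 3 of 1 and 3 of 0. One window thus held most of the 13 reads, although which of the 8 it was is not given. After IL-6 the highest window of the body held 8 to 13 reads (8.31 to 13.5 scaled) and between 0 and 2 windows were empty. The top window could therefore have been as high in both libraries, while the number of empty windows was lower after IL-6.

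In the stretch between the copies the M1 windows held 3, 2, 2, 1, 0 and 0 reads in an unknown order, and the highest window after IL-6 held 7 to 10. In the first 7 Gp49a windows the highest window held 5 to 8 reads in M1 cells and 9 to 12 after IL-6. No window of the locus exceeded 21 reads in either library. The highest window of Lilrb3 held 8 to 17 reads in M1 cells and 14 to 28 after IL-6.

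How well reads can be placed bears on these values. Of the 32-base sequences that start in the Lilrb4 span, 60.2% occur once in NCBIM37, and 5 of its 23 windows are under 50%. The value was 61.5% in the first 7 Gp49a windows, 30.4% in the eighth, 65.1% in the ninth, 68.1% between the copies and 56.2% in the body of Lilrb4. For Lilrb3 it was 54.8%. The ratio in the stretch between the copies was 2.85 (1.22 to 7.42), from 8 and 22 reads, and its interval overlaps those of both copies. The read length and the handling of reads with several matches are not given in the sources used here. A part of the reads may thus have been placed on the wrong copy, and the effect of this on the ratios was not tested.

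Within 200 kb of Lilrb4, the table lists 4 other genes: Gp49a, which lies inside the span, and Fam162b, Gprc6a and Rfx6, all on the downstream side. Their sequences are mostly found once, from 95.2% in Rfx6 to 97.8% in Fam162b. None of the 3 outer neighbors is known as a leukocyte receptor.

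Fam162b, 88.9 kb away, had 23 reads in M1 cells and 31 after IL-6, 2.88 (1.82 to 4.31) and 4.02 (2.73 to 5.71) per window. Its ratio of 1.40 (0.790 to 2.51) included no change. Gprc6a, a receptor for amino acids and cations, lies 118.3 kb away and went from 52 reads to 121, or from 2.17 (1.62 to 2.84) to 5.23 (4.34 to 6.25) per window. At 2.42 (1.73 to 3.41), its ratio was near that of Lilrb4, and its intervals in both libraries overlapped those of Lilrb4.

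Rfx6, a transcription factor of pancreatic and gut endocrine cells, starts 181.2 kb away and had 172 reads in M1 cells and 255 after IL-6. Its signal was 2.29 (1.96 to 2.66) and 3.53 (3.11 to 3.99) per window, a ratio of 1.54 (1.26 to 1.88). The interval of Rfx6 overlaps that of Lilrb4 (1.83 to 3.80) at its edge. Thus 2 of the 4 neighbors were at least 2-fold higher, or 1 of 3 without Gp49a, beside 4.83% of all genes. All 4 had a mean of 2 to 4 reads per window over both libraries, a range where 11.1% of genes were at least 2-fold higher. In that range 77.8% of genes were higher at any size and the median log2 ratio was 0.41. The 3 outer genes were all higher, as were 55.8% of all genes at any size. Shares and counts of genes higher at any size include genes with equal reads in both libraries and genes with no reads in either. The median log2 ratio of the 3 outer genes was 0.62 (0.85 with Gp49a), beside 0.03 over covered genes. Over all genes of chromosome 10 and over all genes it was 0.05, the value that equal reads in both libraries give. Within 500 kb there were 5 genes without Gp49a, of which 1 was at least 2-fold higher, and within 1000 kb there were 13, of which 1 was at least 2-fold higher and 8 were higher at any size.

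Across all genes the log2 ratio went with the signal level, and its median fell from the range of 2 to 4 reads per window upward. Below that, 2115 genes with under 2 reads per window had a median of 0.05, and 17.4% were at least 2-fold higher. Among all 2643 genes with a mean of 2 to 4 reads per window over both libraries, the range that holds Lilrb4 and Gp49a, the median log2 ratio was 0.41 and 11.1% were at least 2-fold higher. In the range of 4 to 6 reads, which holds Lilrb3, 3221 genes had a median of 0.29 and 5.99% were at least 2-fold higher. In contrast, 769 genes with 40 or more reads per window had a median of -1.76 and 93.1% were at least 2-fold lower. The log2 ratio of Lilrb4 was thus 0.97 above the median of its range, that of Gp49a 0.66 and that of Lilrb3 0.62. Base composition also moved with the ratio, and 2627 genes with 40 to 42% GC, as in the Lilrb4 and Gp49a windows, had a median of 0.15. The part that signal level and base composition have in the rise of these genes was not tested.

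Lilrb4 was picked for its ratio among genes with at least 100 reads, so its place among them restates that choice. Of the 1290 such genes in its signal range, 15 (1.16%) were at least 2-fold higher, and of all 15928 such genes, 46 (0.289%). The genes next to Lilrb4 in the order of log2 ratios were Klra2, another leukocyte receptor gene, with 33 and 84 reads (log2 ratio 1.39), and 4930563I02Rik with 49 and 123 reads (1.37). The intervals of these genes overlap, so their order is not resolved.

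**Figure D3:**
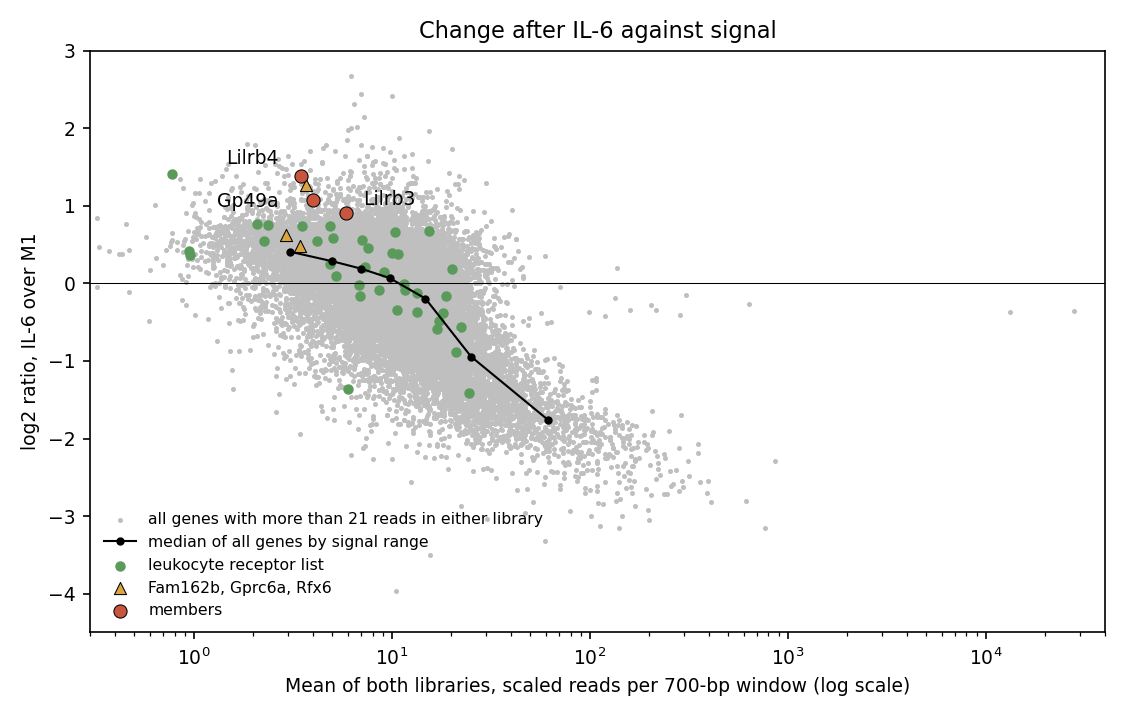
The log2 ratio of IL-6 over M1 (y axis) against the mean of both libraries in scaled reads per 700-bp window (x axis, log scale) for covered genes (gray; receptor list in green). The line is the median of all genes by signal range, drawn from the range of 2 to 4 reads upward, and falls from 0.41 to -1.76. The members (red circles) lie above it at the weak end, as do the 3 outer neighbors (triangles).

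The genes whose pair of levels was most like that of Lilrb4 were sought among the genes with at least 100 reads, by the distance of log2 scaled reads per window in both libraries. Gprc6a was the nearest, at a distance of 0.19, followed by Sult1c1, a sulfotransferase gene on chromosome 17, at 0.22. Ugt2b34, a glucuronosyltransferase gene on chromosome 5, was next at 0.23. Sult1c1 had 2.22 and 5.13 reads per window and Ugt2b34 had 1.78 and 4.33. With 1 value per condition, such likeness describes level and change only.

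Lilrb3 lies in a cluster of receptor genes on chromosome 7. Of 10 covered genes of the cluster, 0 were at least 2-fold higher and 1 was at least 2-fold lower, counts that 10 genes are too few to set apart from the 1.71% and 13.4% of covered genes. The median log2 ratio was 0.39. Lilrb3 had the highest log2 ratio of these, 0.91. It was followed by Gp6, the collagen receptor of platelets, with 74 and 121 reads (0.76) and by Lilra5, an activating receptor, with 29 and 47 reads (0.74). Tarm1, an activating receptor of granulocytes, had 81 and 117 reads (0.58), and Lair1, an inhibitory collagen receptor, 143 and 201 (0.54). The interval of Lilrb3 overlapped those of all 4.

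Ncr1, the natural killer receptor NKp46, had 49 and 56 reads (0.24), Lilra6 had 76 and 72 (-0.02) and Oscar, an osteoclast-associated receptor, 58 and 50 (-0.16). Their sequences differed in how often they are found once, from 48.2% in Lilra6 to 93.4% in Oscar. Gm15448 had 23 and 13 reads (-0.75), with 35.9% of its sequences found once. Pira5, an activating partner of PIR-B, had 183 and 68 reads (-1.37), of which 183 and 67 were in 6 windows, chr7:3845801-3850000. Only 4.99% of the Pira5 sequences are found once, and 14 of its windows had 0 reads in both libraries. Pira2, at 7.56%, had 0 and 2 reads, too few for a fold. The nearest gene of the table, the ribosomal protein gene Rps9, went the other way. The lower coordinates of the coding spans of Rps9 and Lilrb3 are 8.3 kb apart. Rps9 had 94.0 reads per window in M1 cells and 33.2 after IL-6 (log2 ratio -1.50). Its mean was in the range of 40 or more reads per window, where 93.1% of all genes were at least 2-fold lower.

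**Figure D4:**
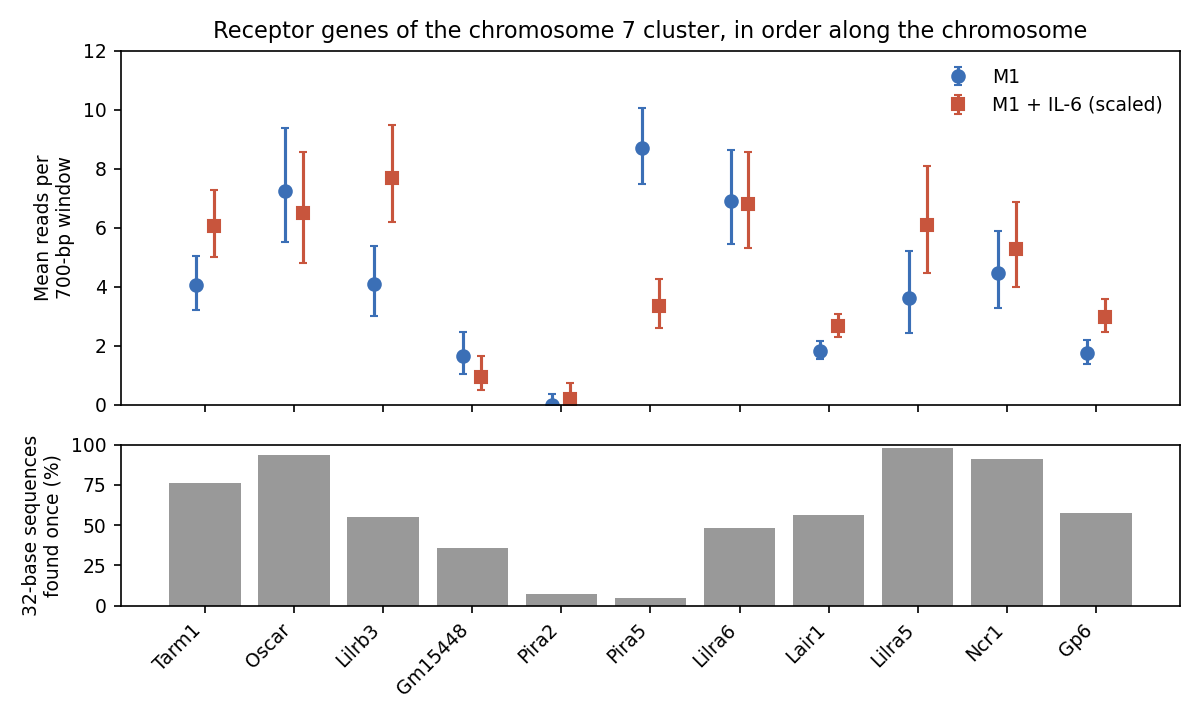
Mean reads per 700-bp window (upper y axis) with 95% exact Poisson intervals for receptor genes of the chromosome 7 cluster, in order along the chromosome (x axis), in M1 cells (blue circles) and IL-6-treated M1 cells (red squares, scaled). Gray bars give the percent of 32-base sequences found once: Lilrb3 had 4.08 and 7.70 reads per window, and Pira5, with 4.99%, had 8.71 and 3.36.

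A wider list of paired leukocyte receptors had 49 names, of which Lilrb3 and Pirb are the same gene. It gave 42 genes in the table, and 40 were covered. Of these 40, 3 were at least 2-fold higher, namely Kir3dl2 (13 and 34 reads, log2 ratio 1.41), Lilrb4 and Gp49a, beside 1.71% of covered genes. Lilrb4 is the gene that was picked, Gp49a shares all its windows with it, and Kir3dl2 had fewer reads than Lilrb4 and a wider interval. Another 2 were at least 2-fold lower, Pira5 and Treml2 (499 and 180 reads, -1.41), beside 13.4% of covered genes, and Cd300lb followed with 385 and 200 reads (-0.89). The median of the list was 0.23, beside 0.03 over all covered genes, and all 3 members stood above it. In M1 cells the list had a median of 7.08 reads per window, above each of the 3 members, and after IL-6 a median of 8.12. Among all genes the median log2 ratio was 0.19 with a mean of 6 to 8 reads per window over both libraries and 0.07 with 8 to 12.

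Ligands of these receptors had other values. Of 11 ligand genes, 0 were at least 2-fold higher and 3 at least 2-fold lower, beside 1.71% and 13.4% of covered genes. The 3 were genes of MHC class I, the ligand of PIR-B: B2m (301 and 102 reads, log2 ratio -1.50), H2-D1 (307 and 116, -1.35) and H2-K1 (122 and 54, -1.11). B2m and H2-D1 had means of 20 to 40 reads per window over both libraries, a range where 46.6% of all genes were at least 2-fold lower. H2-K1 had a mean of 12 to 20, a range where the median log2 ratio of all genes was -0.19. For Itgav and Itgb3, whose products form the integrin bound by gp49B, the log2 ratios were 0.01 and -0.11. The highest were fibronectin, Fn1 (425 and 545 reads, 0.41), the myelin protein gene Omg (17 and 21, 0.35) and Angptl2 (323 and 384, 0.30).

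Among 28 adaptor, kinase and phosphatase genes that act below the receptors, 0 were at least 2-fold higher and 3 at least 2-fold lower, beside 1.71% and 13.4% of covered genes. The 3 were the adaptor genes Hcst (417 and 107 reads, log2 ratio -1.90), Fcer1g (288 and 115, -1.27) and Tyrobp (175 and 77, -1.13). They had means of 20 to 40 or of 40 or more reads per window, ranges where 46.6% and 93.1% of all genes were at least 2-fold lower. Ptpn6, which encodes the SHP-1 recruited by gp49B and PIR-B, had 812 and 398 reads (-0.97), and Ptpn11, which encodes SHP-2, had a log2 ratio of -0.10. The highest were the adaptor Blnk (0.29) and the kinases Csk (0.27) and Fyn (0.18). The median was -0.26 for the signaling genes and -0.13 for the ligands, and scaling by the median of ratios turned both to positive values. In M1 cells the signaling genes had a median of 15.1 reads per window, against 1.91 for Lilrb4, and after IL-6 the median of the signaling genes was 11.4. Among all genes the median log2 ratio was -0.19 with a mean of 12 to 20 reads per window over both libraries and 0.07 with 8 to 12.

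**Figure D5:**
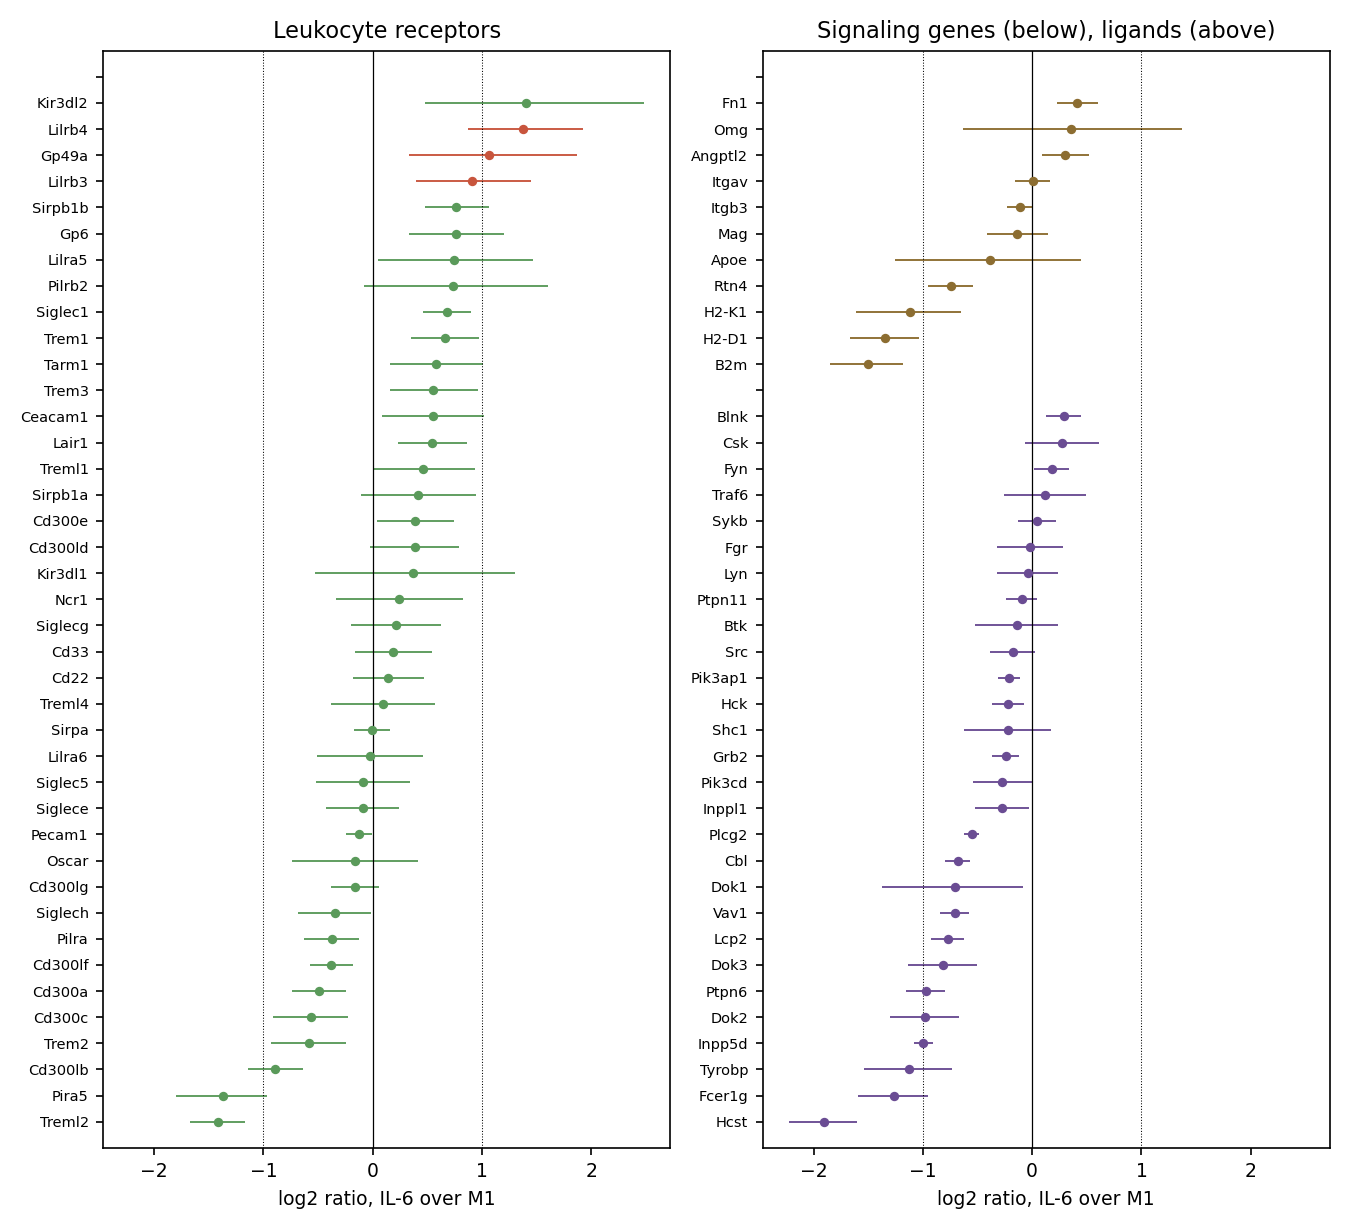
The log2 ratio of IL-6 over M1 (x axis, dotted lines at 2-fold) with 95% Clopper-Pearson intervals for leukocyte receptors (left; members in red), and for ligands (brown) and signaling genes (purple) on the right, for covered genes. Lilrb4, Gp49a and Lilrb3 stand near the top of the receptors, and 0 ligand or signaling genes reach 2-fold higher.

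Mast cells are a main site of gp49B, so markers of these and other cells were set beside the members. All 5 mast cell markers were higher after IL-6. So were 55.8% of all genes, and 38.4% to 77.8% of genes in the signal ranges that hold these markers, with equal reads counted as higher. The median log2 ratio of the 5 markers was 0.79, from 2.33 to 12.3 reads per window in M1 cells and from 3.84 to 17.1 after IL-6. Of these, 1 was at least 2-fold higher (Fcer1a, 21 and 45 reads). All 4 B-cell markers were higher as well, with a median of 0.43. T-cell markers (3 higher, 2 lower) had a median of 0.19, erythroid markers (2 and 2) -0.16 and myeloid progenitor markers (2 and 5) -0.49. The 10 macrophage markers had a median of -0.62, with 4 at least 2-fold lower, beside 13.4% of covered genes. Those 4 had means of 20 to 40 or of 40 or more reads per window, ranges where 46.6% and 93.1% of genes were at least 2-fold lower. The part of these cell types in the values of Lilrb4, Gp49a and Lilrb3 was not tested.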

How the data were processed

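DHS-seq was performed by the authors on untreated and on IL-6-treated M1 cells, 1 library each. Trimmed reads were aligned to NCBIM37 with BWA and summarized with Seqmonk. Versions and the basis of the scaling are not given in the sources used here. The deposited signal is the mean and SD of reads per 700-bp window over each transcript's coding span. Whole reads were recovered as the mean times the windows touched, divided by 1 (M1) or 1.0381634 (IL-6), and 100% of rows came within 0.05 of a whole number. Overlapping transcripts were subtracted to give 40217 stretches, and 276 redundant sums had 0 disagreements. For each gene the transcript that touches most windows was used. Ratios have 95% Clopper-Pearson intervals. The recovery was tested on simulated data. The members and gene lists were chosen with earlier results of these data known.

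Named genes were the members, all genes within 200 kb of Lilrb4, the receptors of the chromosome 7 cluster, the 3 highest and 3 lowest log2 ratios of each other list among covered genes (over 21 reads in M1 cells, after IL-6 or in both), and the 3 genes nearest to Lilrb4. Klra2, 4930563I02Rik, Rps9, Itgav, Itgb3, Ptpn6, Ptpn11 and Fcer1a were named after their values were seen. Alternatives covered scaling, reads added, minimum reads, transcript and distance. Python 3.11.15, numpy 2.4.6, pandas 2.3.3, scipy 1.17.1 and Biopython 1.88 were used.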

Additional observations from a re-analysis of the deposited data

How the results depend on the processing

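Under 56 alternative values of 10 results, 41 were classed as the same, 13 as moved and 2 as reversed. Counts of genes have no interval, and the bounds of a median were the medians of the bounds of single genes. Some of the 41 could not differ, because the alternative used the same windows or genes. These were the union of transcripts for each member, the shortest transcript of Lilrb3, and the minimum of 20 reads for neighbors. The minimum of over 21 reads for signaling genes and for ligands was also of this kind. Among the 41, Gp49a fell under 2-fold, to 1.93, with 5 reads added. Scaling by the median of ratios, set on 544 windows that held 22 reads or more in each library, added 1.83 to every log2 ratio. It gave ratios of 9.29 for Lilrb4, 7.52 for Gp49a and 6.69 for Lilrb3. With it all 4 chromosome 10 neighbors were at least 2-fold higher, with a median of 2.67, as were 15359 genes against 16 at least 2-fold lower, a median of 2.05 for the receptors, and medians that reversed to 1.57 for signaling genes and 1.69 for ligands. Within 100 kb the count of neighbors at least 2-fold higher was 1, and without Gp49a, an alternative chosen after seeing the data, it was also 1. The number of genes at least 2-fold higher was 1092 with no minimum, 46 with at least 100 reads over both libraries and 176 with 5 reads added. Without the windows shared with Gp49a, also chosen after seeing the data, the ratio of Lilrb4 was 3.16. No paired analysis was possible because there was 1 library of each kind. Windows of 700 bp and under 50 reads per Gp49a library limit how finely the rise can be placed.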
